A study of Mus musculus with 12 samples.

Results

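The first postnatal week of the wild-type mouse ovary was described from 3 arrays of P7 ovaries (postnatal day 7) set against 3 arrays of P0 ovaries (postnatal day 0). These are 6 of the 12 arrays of a study of Lhx8, a LIM homeobox gene of oocytes, and they were chosen by the genotype and age in their labels, not by any measured value. The wild-type P7 and wild-type P0 mice carried Lhx8. The other 6 arrays came from Lhx8 knockout mice at P7 and P0, 3 at each age, and serve here as the same week in the other genotype. All 4 groups shared a mixed 129, C57BL/6 and SF1 background, no treatment is given, and the total RNA came from ovaries of 3 animals for each genotype and age, as biological replicates.

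The tissue label reads oocytes, whereas the protocols describe gonads and ovaries. Genes of somatic and blood cells were above background on every array of both ages, among them Inha, the inhibin alpha gene of granulosa cells, the stromal proteoglycan gene Dcn and the globin gene Hba-a1. The values below are read as those of ovaries, in which fewer cells of a type and less RNA per cell cannot be told apart.

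The mouse ovary is remodelled around birth. Clusters of germ cells, joined since they divided as sister cells, break apart, many germ cells die, and the survivors are each enclosed by flat pregranulosa cells as primordial follicles. Germ cells reach this stage at the end of meiotic prophase, when the synaptonemal complex and the piRNA pathway of the germ line have been in use, and then arrest. In the following days a first wave of follicles starts to grow: the oocyte builds the zona pellucida, secretes growth factors and lays down maternal stores, while its granulosa cells divide and take up the genes of FSH response, inhibin and anti-Müllerian hormone.

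The deposited values are z scores, standardized within each array over its probes, and they were quantile-normalized, which gives all arrays the same distribution. A level or a difference is therefore in z units of an array, not a fold change, and levels of different probes were not compared as amounts of RNA. A gene or probe is called bright or dim only for a high or low score on the arrays. The P0 columns carry 6 decimals and the P7 columns 2. Age and export, or any processing that went with it, cannot be told apart within a genotype. The highest deposited score was 3.45 to 4.89 on the wild-type P7 arrays and 7.21 to 8.02 on the wild-type P0 arrays, so the brightest probes reached less high at P7 before normalization, and their differences depend on the scaling.

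Background was set on each array from 1523 probes for receptors of smell and pheromones (olfactory, vomeronasal and trace amine types), at their 95th percentile. The share of all probes above it was 49.4% ± 0.99 (SD, n = 3) at P7 and 35.1% ± 1.61 (SD, n = 3) at P0. Every P7 array lay above every P0 array, by a two-sided exact permutation test with p = 0.1, the smallest that 3 arrays against 3 can give. The 12 arrays separated by age on the first principal component (44.7% of the variance) and by genotype on the second (31.0%). Within each age the first component also parted wild type from knockout, and the second also parted the ages in knockout. Arrays of wild-type P7 correlated among themselves with r from 0.984 to 0.99, those of wild-type P0 with r from 0.975 to 0.982, and P7 arrays with P0 arrays with r from 0.906 to 0.933 over 23144 probes.

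**Figure D1:**
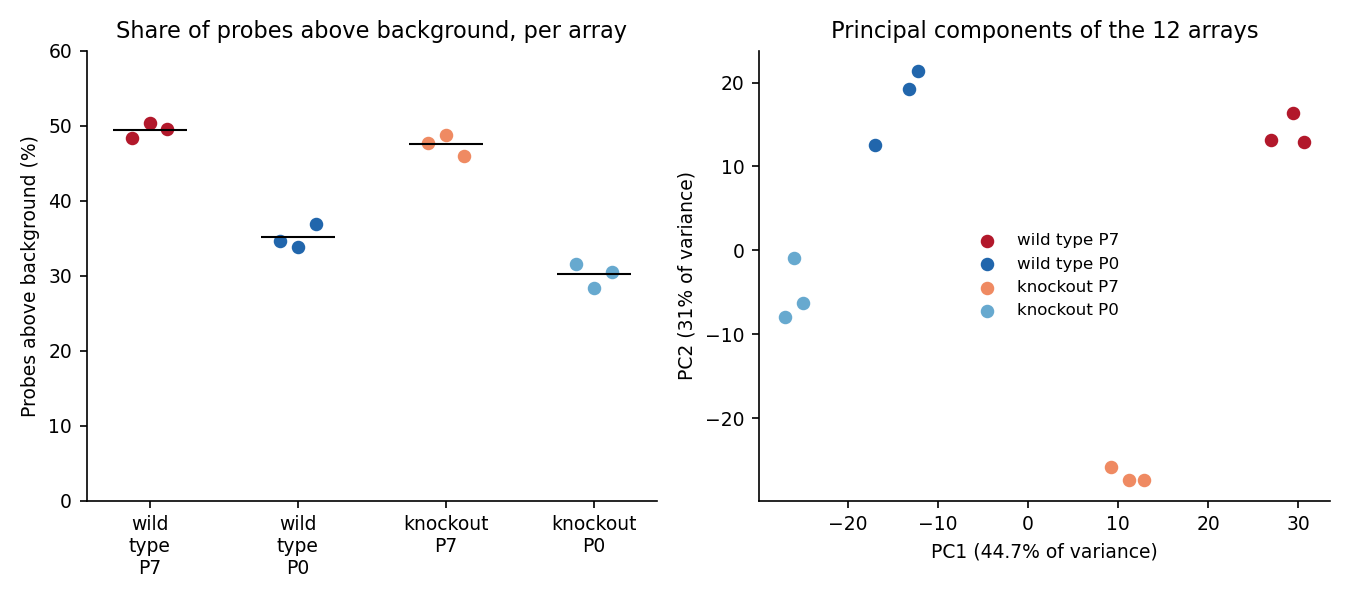
Left, the share of probes above background in percent for each of the 12 arrays (points) with the group mean (line); the wild-type P7 arrays average 49.4% and the wild-type P0 arrays 35.1%. Right, the arrays on the first 2 principal components of the normalized scores; the first component parts P7 from P0 in both genotypes, and the second parts wild type from knockout.

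Of 12215 genes tested, 6091 passed limma's test for P7 against P0 in wild type (Benjamini-Hochberg adjusted p below 0.05), which is 49.9% of all genes. Higher at P7 were 3058 (25.0%) and lower 3033 (24.8%), so that 50.2% of the calls were rises. This split rests on the scaling: 68.9% of calls were rises with the deposited scores and 66.7% with scores centred on the receptor probes. A rise or fall below is relative to the median gene, whose difference was 0.01 in the quantile-normalized scores and 0.16 in the deposited ones. The arrays of the 2 ages did not overlap for 7184 genes (58.8%), and calls larger than 1 z unit were scarcer, 231 rises (1.89%) and 106 falls (0.868%). Among 1825 genes with at least 2 probes called, 517 (28.3%) had probes called in opposite directions. Above 1 z unit this was 30 of 181 genes (16.6%). Other probes of a named gene are given wherever they disagree.

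The knockout week, with no array in common, gave 6049 calls (49.5%), 3403 higher (27.9%) and 2646 lower (21.7%). Of the wild-type calls, 3705 were also called in the same direction in knockout (60.8% of the wild-type and 61.2% of the knockout calls), and 143 in the opposite one (2.35% and 2.36%). The test of the wild-type week minus the knockout week, in which a shift that both genotypes' arrays of an age share drops out, passed for 1587 genes (13.0%), 715 with a positive difference (5.85%) and 872 with a negative one (7.14%). Opposite calls between probes of a gene were found in 3 of 234 genes there (1.28%). With scaling by the median and the median absolute deviation (MAD) of each array the median gene differed by −1.49 between the weeks, and 433 differences were positive and 6530 negative.

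Genes of the growing oocyte were among the largest rises of the week. Oosp1 and Oosp2, which encode proteins secreted by oocytes, the growth factor gene Bmp15, and Mos, the kinase that starts the MAPK cascade of meiotic maturation, were low at P0 and rose by 1.65 to 2.84 z units in wild type. None of them passed the test in knockout ovaries. Of 6 tested members of the zona pellucida and sperm-egg binding list 5 rose and 1 fell, with a median difference of 1.6 against 0.01 for all genes. Of 8 oocyte-secreted growth factor genes 4 rose and 2 fell, with a median of 0.56. The counts of rises, 5 of 6 and 4 of 8, stand beside the 25.0% of all genes that rose. Of 8 zona and 10 growth factor genes with a probe, these 6 and 8 passed the filter on dim probes (above background on at least 3 arrays). For 1 and 3 of them the lower age was below background. Such genes could pass only through other arrays where they were high, so the counts are a description.

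Oosp1 scored 2.47, 2.60 and 3.47 on the P7 arrays, against −0.07, 0.12 and −0.02 on the P0 arrays. All P7 arrays lay far above all P0 arrays, with the third P7 array highest. The difference was 2.84 ± 0.18 (SE, limma adjusted p = 5.25e-08). Oosp2 rose by 1.65 ± 0.15 (adjusted p = 1.08e-06), and its other probe by 1.75. Bmp15, an oocyte ligand of the TGF-beta family, scored 2.85, 2.69 and 3.52 at P7, against 0.41, 0.67 and 0.35 at P0. Its ages were again well apart, by 2.54 ± 0.16 (adjusted p = 5.25e-08). Fgf8, another oocyte ligand, which acts on cumulus cell metabolism, scored 0.83, 0.55 and 1.17 at P7 and was not above background on any P0 array, a rise of at least 1.0 (adjusted p = 1.28e-06).

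Several bright oocyte genes also scored higher at P7 after quantile normalization, but with a direction or a call that other scalings did not keep. Gdf9, the partner of Bmp15, scored 5.23, 5.78 and 5.49 at P7, against 2.48, 3.50 and 2.78 at P0, with no overlap. Its difference of 2.58 ± 0.22 (adjusted p = 7.33e-07) turned to −1.10 with median and MAD scaling and did not pass by ranks (adjusted p = 0.591). In knockout Gdf9 differed by 0.86 (adjusted p = 0.00505). Zp3, the zona protein that binds sperm, scored 4.32, 4.11 and 4.44 at P7, against 1.87, 3.18 and 2.11 at P0. Here too no array overlapped, and the difference of 1.90 ± 0.24 (adjusted p = 1.85e-05) was −0.23 with median and MAD scaling and did not pass by ranks (adjusted p = 0.586). Zp1, which links zona filaments, rose by 1.55 ± 0.21 (adjusted p = 4.60e-05; 0.0571 by ranks).

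The subcortical maternal complex and the NLRP proteins of the oocyte are maternal stores under the egg's membrane. Of 15 members with a probe 11 passed the filter on dim probes, 5 of them below background at P0, so that these could pass only through arrays where they were high. The count is thus a description: the 11 that passed were called higher after quantile normalization, with a median of 1.15, or 0.77 at their bounds, and with no filter 11 were called higher and 2 lower. Only 6 rose and 3 fell with the deposited scores, 6 rose and 5 fell with median and MAD scaling, and 4 rose by ranks. Between 5 and 6 of the 11 were called higher after leaving out any 1 of the 3 P7 arrays, whichever it was. Members above background on fewer than 3 of the remaining arrays left the test and counted as not called, so the filter alone can lower this count. Nlrp14 (1.91 ± 0.23, adjusted p = 1.76e-05) and Padi6 (1.19 ± 0.25, adjusted p = 0.00118), both among the brightest genes, had differences of −0.18 and −0.89 with the deposited scores. Padi6 and Nlrp5, a scaffold of the complex (0.97 ± 0.30, adjusted p = 0.0141; −0.98 with the deposited scores, and adjusted p = 0.0827 without the first P0 array), also rose in knockout, by 1.73 (adjusted p = 5.26e-05) and 1.48 (adjusted p = 0.000792), and their weeks did not pass as different (adjusted p = 0.327 and 0.445). The dim members fared differently. Nlrp4a scored 0.35, 0.44 and 0.74 at P7, and Nlrp9a 0.45, 0.56 and 0.84, and neither was above background at P0, which makes rises of at least 0.67 (adjusted p = 1.05e-07) and at least 0.77 (adjusted p = 1.43e-07). Khdc3, a complex member that guards genome stability in the embryo, scored 2.58, 2.71 and 2.55 at P7, against 0.56, 1.33 and 1.15 at P0, a rise of 1.6 ± 0.16 (adjusted p = 2.85e-06; 0.0985 by ranks).

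Of 19 genes of meiotic arrest and maturation 8 rose and 3 fell (median 0.26), of 18 stored-mRNA and translation genes 9 rose and 6 fell (median 0.27), and of 26 methylation and chromatin factors 9 rose and 5 fell (median 0.08), against 25.0% of all genes that rose and 24.8% that fell. At their bounds the median of the stored-mRNA list was 0.02. Mos led the first of these lists with 1.73, 1.66 and 1.97 at P7, against −0.10, 0.27 and 0.23 at P0. Its ages were separated by 1.65 ± 0.11 (adjusted p = 5.25e-08). Eif4e1b, an oocyte form of the cap-binding protein, scored 1.13, 1.09 and 1.5 at P7 and lay below background at P0, a rise of at least 1.40 (adjusted p = 4.18e-08), with 0.87 and 1.30 for its other probes. Npm2, a histone chaperone stored for the embryo, scored 1.91, 1.64 and 2.44 at P7, against 0.17, 0.46 and 0.40 at P0, and rose by 1.65 ± 0.15 (adjusted p = 1.35e-06). H1f8, the oocyte linker histone, rose by 1.69 ± 0.17 (adjusted p = 2.54e-06; 0.0729 by ranks). Dnmt1, the maintenance DNA methyltransferase, scored 3.34, 3.78 and 3.68 at P7, against 2.0, 2.19 and 1.85 at P0. It rose by 1.58 ± 0.14 (adjusted p = 9.32e-07; 0.87 with median and MAD scaling) in wild type and fell by 0.46 in knockout (adjusted p = 0.0133).

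**Figure D2:**
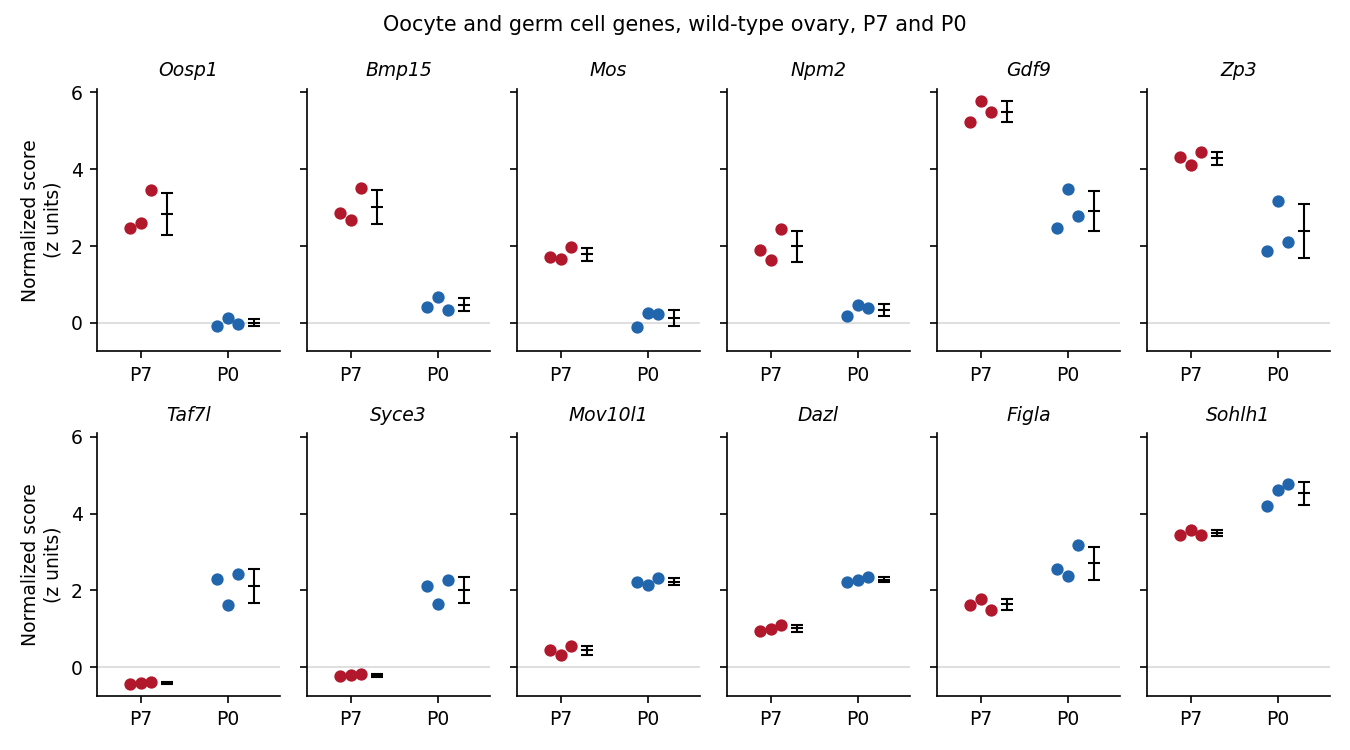
Normalized score in z units of 12 oocyte and germ cell genes on the 3 wild-type P7 arrays (left in each panel) and the 3 wild-type P0 arrays (right), with the group mean and SD as bars. Oosp1, Bmp15, Mos and Npm2 are higher at P7 and Taf7l, Syce3, Mov10l1, Dazl, Figla and Sohlh1 lower; Gdf9 and Zp3 are higher here, with differences of −1.10 and −0.23 under median and MAD scaling.

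Of 15 oocyte transcription regulators 3 rose, 5 fell and 7 did not pass, with a median of −0.07, against 25.0% and 24.8% of all genes, so the list as a whole stood near the shares of all genes. Figla, the basic helix-loop-helix factor that switches on zona genes, scored 1.63, 1.77 and 1.5 at P7, against 2.55, 2.38 and 3.18 at P0, and fell by 1.07 on the z scale (SE 0.16, adjusted p = 9.03e-05). Sohlh1, a helix-loop-helix factor needed for follicle formation, scored 3.45, 3.57 and 3.45 at P7, against 4.20, 4.61 and 4.78 at P0. All P7 arrays of both genes lay below all P0 arrays, and Sohlh1 differed by −1.04 ± 0.13 (adjusted p = 1.88e-05), with −1.03 for its other probe. Its relative Sohlh2 differed by −0.43 ± 0.08 (adjusted p = 0.000472). The homeobox gene Nobox did not pass (−0.07 ± 0.10, adjusted p = 0.574; 0.27 with the deposited scores, where it was called). Lhx8 itself scored 0.92, 0.84 and 1.16 at P7, against 0.95, 1.24 and 1.71 at P0. Its ages overlapped and the difference of −0.33 ± 0.15 did not pass (adjusted p = 0.0814), whereas without the first P0 array it was −0.49 (adjusted p = 0.00984). The knockout arrays scored −0.33, −0.23 and −0.15 at P7 and 0.30, 0.18 and 0.26 at P0, below every wild-type array of their age. Foxo3, which holds primordial follicles dormant, differed by −0.59 ± 0.13 (adjusted p = 0.00203; 0.255 with the deposited scores). Kit, the oocyte receptor that acts on Foxo3 through PI3K, differed by −1.06 ± 0.18 (adjusted p = 0.00027; 0.25 by ranks) on its brightest probe and by −0.00 on another. Mtor, the growth kinase, differed in wild type and knockout by −0.85 (adjusted p = 9.42e-06) and −0.87 (adjusted p = 6.52e-06), in a dormancy and activation list of which 9 of 27 members rose and 7 fell.

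More genes of meiotic prophase and of the shared germ cell programme fell than rose, and 9 and 7 of those tested did not pass. The pan germ cell list had 9 falls and 1 rise among 17 tested (median −0.34), and the meiotic prophase list 11 falls and 4 rises among 24 (median −0.28), against 24.8% of all genes that fell. These counts were 7 to 10 falls of 17 and 8 to 11 of 24 over the 5 scalings. Of 21 pan germ cell and 37 meiotic prophase genes with a probe, these 17 and 24 passed the filter on dim probes. For 3 and 4 of them the lower age was below background. Such genes could pass only through other arrays where they were high, so the counts are a description. The knockout week had more falls in both lists, 14 of 17 and 15 of 24, against 21.7% of all genes that fell there, with medians of −0.70 and −0.50. The largest falls were those of a subunit of the transcription machinery and of members of the synaptonemal complex and the piRNA pathway. Not all members of the complex and the pathway fell. Of the synaptonemal complex Sycp1 and Syce1 fell too, Syce2 did not pass (−0.09) and Sycp2 rose (0.35). Of the piRNA pathway Gtsf1 fell (−0.70), and Tdrd1 (−0.22), Tdrd6 (−0.19) and Rnf17 (0.11) did not pass.

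Taf7l, a germ cell form of a TFIID subunit, scored −0.43, −0.41 and −0.39 at P7, against 2.3, 1.62 and 2.42 at P0. The P7 arrays were close to background, 2 of 3 above it, and the difference was −2.53 ± 0.17 (adjusted p = 9.17e-08), with −2.51 in knockout. Syce3, a central element protein of the synaptonemal complex, scored −0.24, −0.21 and −0.17 at P7, against 2.12, 1.64 and 2.27 at P0. It differed by −2.22 ± 0.14 (adjusted p = 5.16e-08) in wild type and −1.93 in knockout. Mov10l1, the RNA helicase that feeds piRNA biogenesis, scored 0.45, 0.32 and 0.56 at P7, against 2.22, 2.13 and 2.31 at P0, and differed by −1.77 ± 0.11 (adjusted p = 4.18e-08). No P7 array reached any P0 array for these 3 genes. Tdrd9, another helicase of the pathway and outside these lists (−1.76 ± 0.12, adjusted p = 8.31e-08), and the PIWI gene Piwil2 (−1.28 ± 0.12, adjusted p = 2.01e-06) fell as well.

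Of the meiotic cohesin genes Smc1b and Stag3 fell, and Rec8 did not pass (−0.58 in both genotypes). Smc1b scored 1.21, 1.39 and 1.16 at P7, against 2.50, 2.72 and 2.90 at P0, a difference of −1.46 ± 0.13 (adjusted p = 8.96e-07). Stag3 scored 0.28, 0.75 and 0.28 at P7, against 1.52, 1.40 and 1.69 at P0, a difference of −1.10 ± 0.15 (adjusted p = 3.98e-05). Neither gene's ages overlapped. Dazl, the RNA-binding protein that commits cells to gametogenesis, scored 0.93, 0.99 and 1.11 at P7, against 2.21, 2.28 and 2.34 at P0. Its difference of −1.26 ± 0.12 (adjusted p = 2.54e-06) in wild type stood against −2.64 in knockout, and the weeks differed by 1.38 ± 0.18 (adjusted p = 0.000184). Among the few rises was that of Sgo2a, the shugoshin that protects centromere cohesion, with 1.14, 1.11 and 0.99 at P7, against 0.31, 0.31 and 0.32 at P0 (0.76 ± 0.10, adjusted p = 3.99e-05). The weeks of Syce3 did not pass as different (−0.29 ± 0.20, adjusted p = 0.342), nor did those of Taf7l, Mov10l1, Tdrd9 and Piwil2 (−0.12 to 0.08). By ranks these last 4 passed, with −27.99 percentile points for Taf7l, 19.95 for Tdrd9, 6.52 for Mov10l1 and 6.55 for Piwil2. Under median and MAD scaling Mov10l1 (−1.80) and Piwil2 (−2.74) passed with the opposite sign, where the median gene differed by −1.49.

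The promoters of some of these genes carry E-boxes, the sites that helix-loop-helix factors such as Figla and Sohlh1 bind, written CANNTG. The 250 bases before each RefSeq start (assembly GRCm38.p6) were searched on both strands, after the values were known. A RefSeq promoter was found for 14 of the 20 called rises in the zona, growth factor and maternal complex lists, for 15 of the 19 called falls in the pan germ cell and meiotic lists, and for 15 of the 21 granulosa rises. The E-box CAGGTG, on either strand, was in 50.0% of the oocyte promoters, 26.7% of the germ cell ones and 26.7% of the granulosa ones, against 17.2% of 32851 promoters. The E-box CACGTG was in 14.3% of the oocyte promoters, 40.0% of the germ cell ones and 3 of 15 granulosa ones, against 6.02% of all promoters. AGGTCA, a nuclear receptor motif, was in 7.14%, 13.3% and 3 of 15 of them in the same order, against 14.0% of all promoters. The general E-box CANNTG, which includes both E-box forms, was in 92.9%, 80.0% and 73.3%, against 66.2%. No difference between the lists was tested. A match describes these letters only, and no binding was measured. The first of the sequences below are of 3 genes that were higher at P7, Zp3 (chr5:135979855-135980104, plus strand), Oosp1 (chr19:11691052-11691301, minus strand) and Khdc3 (chr9:73102148-73102397, plus strand), the others of 3 that were lower, Taf7l (chrX:134476491-134476740, minus strand), Mov10l1 (chr15:88982744-88982993, plus strand) and Stag3 (chr5:138280259-138280508, plus strand). Each ends at the base before the start, and capitals mark the motif, which reads CACCTG where it lies on the opposite strand.
Zp3: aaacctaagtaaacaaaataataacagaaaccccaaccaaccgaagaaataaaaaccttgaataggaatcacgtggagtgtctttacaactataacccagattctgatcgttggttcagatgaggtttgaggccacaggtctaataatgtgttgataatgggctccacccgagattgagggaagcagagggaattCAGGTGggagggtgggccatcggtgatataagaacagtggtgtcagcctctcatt
Oosp1: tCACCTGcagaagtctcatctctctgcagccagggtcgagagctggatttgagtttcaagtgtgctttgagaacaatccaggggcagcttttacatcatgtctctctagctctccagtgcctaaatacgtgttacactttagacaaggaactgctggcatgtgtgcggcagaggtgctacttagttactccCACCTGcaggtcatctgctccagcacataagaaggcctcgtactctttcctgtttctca
Khdc3: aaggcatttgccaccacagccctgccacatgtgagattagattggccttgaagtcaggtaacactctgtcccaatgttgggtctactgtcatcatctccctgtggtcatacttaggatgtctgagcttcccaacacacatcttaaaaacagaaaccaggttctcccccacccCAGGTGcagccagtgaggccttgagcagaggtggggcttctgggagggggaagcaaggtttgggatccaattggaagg
Taf7l: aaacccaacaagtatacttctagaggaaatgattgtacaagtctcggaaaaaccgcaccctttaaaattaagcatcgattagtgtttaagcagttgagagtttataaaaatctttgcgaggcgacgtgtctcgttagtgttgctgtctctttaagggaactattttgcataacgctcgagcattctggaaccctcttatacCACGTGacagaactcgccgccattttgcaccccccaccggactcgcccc
Mov10l1: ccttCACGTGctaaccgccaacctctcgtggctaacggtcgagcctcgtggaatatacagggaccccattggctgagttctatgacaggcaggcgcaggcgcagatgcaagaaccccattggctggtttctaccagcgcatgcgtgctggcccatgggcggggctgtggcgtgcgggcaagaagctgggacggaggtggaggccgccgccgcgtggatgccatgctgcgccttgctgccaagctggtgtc
Stag3: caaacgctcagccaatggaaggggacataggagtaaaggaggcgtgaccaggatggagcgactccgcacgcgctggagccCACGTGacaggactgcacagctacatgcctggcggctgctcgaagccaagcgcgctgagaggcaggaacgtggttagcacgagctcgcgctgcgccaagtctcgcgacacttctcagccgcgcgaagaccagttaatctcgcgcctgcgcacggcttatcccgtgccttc

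Counted from the start, the motif lies at −55 in Zp3, at −249 and −59 in Oosp1 and at −78 in Khdc3. It lies at −49 in Taf7l, at −246 in Mov10l1 and at −170 in Stag3. The Zp3 sequence holds a CACGTG as well, left in lower case.

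Of 35 granulosa genes 21 rose, 5 fell and 9 did not pass, against 25.0% and 24.8% of all genes that rose and fell, with a median of 0.49, or 0.34 with the 6 genes whose lower age was below background at their bounds. Median and MAD scaling gave 14 rises and 10 falls, the other scalings 19 to 22 rises and 4 to 5 falls. In knockout 17 rose and 2 fell (27.9% and 21.7% of all genes), with a median of 0.23, and the difference of the weeks was positive for 14 and negative for 4 (5.85% and 7.14% of all genes). Among the wild-type rises were Hsd17b1, a gene of estrogen synthesis, and genes of inhibin and activin, anti-Müllerian hormone and the FSH receptor.

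Hsd17b1, which makes estradiol from estrone, scored 3.13, 2.98 and 3.65 at P7, against 0.35, 0.60 and −0.16 at P0. This was the largest rise of the list, 2.99 ± 0.23 (adjusted p = 3.03e-07), against 1.91 in knockout. Nr5a2, a nuclear receptor of granulosa cells, scored 2.19, 2.10 and 2.32 at P7, against 0.57, 0.40 and 0.56 at P0. Its brightest probe differed by 1.69 ± 0.09 (adjusted p = 1.41e-08), its other probes by 0.24 and 0.94, and the knockout by 0.48. Inhba, the activin and inhibin beta A subunit, scored 1.88, 1.07 and 1.21 at P7, against −0.31, −0.08 and −0.23 at P0, where 1 array was above background, and rose by 1.59 ± 0.17 (adjusted p = 5.04e-06). Amh, which limits follicle recruitment, scored 0.51, 0.58 and 0.46 at P7 and was not above background at P0, a rise of at least 0.67 (adjusted p = 7.21e-08). Fshr, the FSH receptor, rose by at least 0.83 (adjusted p = 3.82e-06) with 1.01 and 0.17 for other probes. The estrogen receptor gene Esr2 rose by 1.17 ± 0.14 (adjusted p = 1.02e-05), its other probes by 0.28 and 0.38. Dhh, the hedgehog ligand that granulosa cells send to theca precursors, scored 1.41, 1.45 and 1.51 at P7, against 0.14, 0.22 and 0.07 at P0. It rose by 1.32 ± 0.09 (adjusted p = 1.43e-07).

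Inha, the inhibin alpha subunit, scored 4.22, 3.05 and 4.01 at P7, against 1.94, 2.58 and 1.69 at P0, and rose by 1.69 ± 0.25 (adjusted p = 7.26e-05; 0.726 with median and MAD scaling). Fst, the activin-binding follistatin, scored 2.48, 2.44 and 2.50 at P7, against 1.09, 1.59 and 1.6 at P0. It rose by 1.05 ± 0.16 (adjusted p = 9.32e-05; 0.35 with median and MAD scaling) in wild type and did not pass in knockout (−0.29, adjusted p = 0.149).

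Members that fell included Rspo1, which strengthens WNT signals in the fetal ovary. It scored −0.19, −0.33 and −0.24 at P7, against 1.53, 1.03 and 1.03 at P0, a difference of −1.45 ± 0.13 (adjusted p = 1.15e-06), with −1.08 in knockout. Irx3, a homeobox gene of pregranulosa cells, scored 2.44, 2.33 and 2.02 at P7, against 3.09, 2.90 and 3.01 at P0. It fell by 0.74 in wild type (SE 0.15, adjusted p = 0.000752) and did not pass in knockout (0.14, adjusted p = 0.462). The keratin gene Krt18 differed by −0.92 ± 0.12 (adjusted p = 3.98e-05) in wild type and 0.04 in knockout. Foxl2, the factor that keeps granulosa identity, did not pass (0.02 ± 0.09, adjusted p = 0.883; 0.36 and adjusted p = 0.00407 with the deposited scores). Kitl, the granulosa ligand of the KIT receptor, rose by at least 0.27 (adjusted p = 0.000302). Gja1, the connexin of granulosa gap junctions, scored 4.84, 4.86 and 4.94 at P7, against 3.16, 3.2 and 2.93 at P0, a difference of 1.79 ± 0.18 (adjusted p = 3.72e-06) that was −2.3 with median and MAD scaling and did not pass with the deposited scores (adjusted p = 0.259).

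Theca and steroidogenic genes showed 8 rises and no falls among 16 tested, against 25.0% and 24.8% of all genes, with a median of 0.31, and 0.17 at their bounds. Of 23 members with a probe these 16 passed the filter on dim probes, 5 with the lower age below background and 1 below it at both ages. Such members could be tested only through other arrays where they were high, so the count is a description. Median and MAD scaling gave 7 rises and 3 falls. Ptch1, the receptor and target of hedgehog ligands, scored 1.44, 1.18 and 1.08 at P7, against 0.34, 0.91 and 0.68 at P0, and rose by 0.59 ± 0.14 (adjusted p = 0.00245), with 0.41 for its other probe. In knockout it did not pass (−0.23, adjusted p = 0.174). Cyp11a1, the first enzyme of steroid synthesis, was above background on 2 of 3 P7 arrays and on none at P0, a rise with adjusted p = 0.00728.

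Of 33 proliferation genes 24 rose, none fell and 9 did not pass, against 25.0% of all genes that rose and 24.8% that fell, with a median of 0.53. In knockout 12 rose and 1 fell (27.9% and 21.7% of all genes), with a median of 0.23. The difference of the weeks was positive for 10 and negative for none (5.85% and 7.14% of all genes). Median and MAD scaling gave 12 rises and 5 falls, the others 20 to 29 rises and at most 1 fall. Bub1b, a kinase of the spindle checkpoint, scored 2.10, 2.02 and 2.12 at P7, against 0.64, 1.19 and 0.63 at P0. All P7 arrays were higher, by 1.26 ± 0.14 (adjusted p = 7.04e-06), with 0.56 on its other probe. Plk1, a mitotic kinase (1.13 ± 0.21, adjusted p = 0.000417), Cdc20, an activator of the anaphase-promoting complex (1.07 ± 0.11, adjusted p = 3.04e-06), and Top2a, the topoisomerase of dividing cells (0.75 ± 0.12, adjusted p = 0.000146), rose as well. With median and MAD scaling Plk1 and Cdc20 did not pass (adjusted p = 0.235 and 0.66). Other probes of Cdc20 differed by 0.42, 0.81 and 0.05 and those of Top2a by 0.20 and 0.88. Ezh2, the methyltransferase of histone H3 lysine in Polycomb complexes and a member of the chromatin list, scored 2.85, 2.83 and 2.83 at P7, against 0.60, 0.92 and 0.69 at P0. It rose by 2.10 ± 0.11 (adjusted p = 1.23e-08) in wild type and 1.69 in knockout, with 0.39 on its other probe.

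Of 20 imprinted and fetal growth genes tested 9 fell and 3 rose, against 24.8% and 25.0% of all genes, with a median of −0.19, and 9 to 13 fell over the 5 scalings. Igf2, the fetal growth factor, scored 3.16, 3.60 and 3.10 at P7, against 5.14, 4.74 and 4.89 at P0. Cdkn1c, the cell cycle inhibitor of the same chromosomal cluster, scored 2.79, 2.77 and 2.55 at P7, against 4.61, 4.21 and 4.39 at P0. Both were lower on every P7 array. Their differences were −1.64 ± 0.14 (adjusted p = 5.75e-07) and −1.70 ± 0.11 (adjusted p = 7.26e-08) in wild type, and −1.05 and −1.01 in knockout. Igf2r, which clears the growth factor, differed by −0.76 ± 0.09 (adjusted p = 1.02e-05), with −0.90 on its other probe, and Mest by −0.99 ± 0.17 (adjusted p = 0.000245). Dlk1, a Notch-related inhibitor of differentiation, scored 3.26, 3.68 and 3.48 at P7, against 4.89, 4.67 and 4.22 at P0, a difference of −1.12 ± 0.16 (adjusted p = 6.50e-05), with −2.16 on its other probe. Dlk1 did not pass in knockout (0.03, adjusted p = 0.885), and the weeks differed by −1.15 ± 0.23 (adjusted p = 0.00502; 0.501 with the deposited scores).

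**Figure D3:**
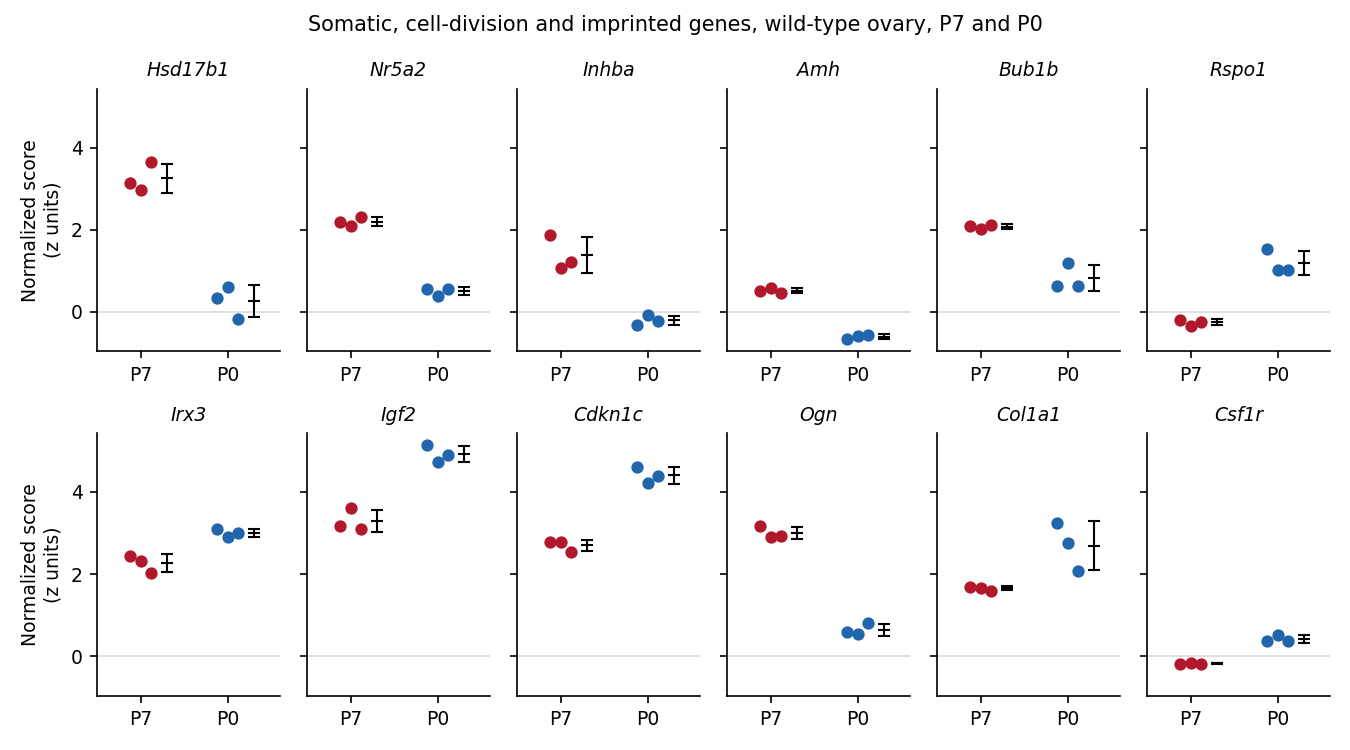
Normalized score in z units of 12 somatic, cell-division and imprinted genes on the 3 wild-type P7 arrays (left in each panel) and the 3 wild-type P0 arrays (right), with the group mean and SD as bars. Hsd17b1, Nr5a2, Inhba, Amh, Bub1b and Ogn are higher at P7, and Rspo1, Irx3, Igf2, Cdkn1c, Col1a1 and Csf1r lower, with no overlap of the ages in any panel.

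Stromal and matrix genes were mixed. Of 32 tested 8 rose and 6 fell, with a median of 0.07, near the 25.0% and 24.8% of all genes. In knockout 16 rose and 1 fell, against 27.9% and 21.7% of all genes, with a median of 0.43. The difference of the weeks was negative for 9 and positive for none, against 7.14% and 5.85% of all genes. Median and MAD scaling turned the wild-type counts to 3 rises and 14 falls. Ogn, a small proteoglycan, scored 3.16, 2.91 and 2.93 at P7, against 0.58, 0.53 and 0.81 at P0. Its brightest probe rose by 2.36 ± 0.13 (adjusted p = 1.41e-08), 2 others differed by 0.18 and 0.38, and the knockout rose by 2.14. Col1a1, the chain of type I collagen, scored 1.69, 1.67 and 1.6 at P7, against 3.25, 2.75 and 2.07 at P0, which spread widely, and differed by −1.03 ± 0.20 (adjusted p = 0.000717). Timp2, an inhibitor of matrix proteases, fell in wild type (−0.74 ± 0.08, adjusted p = 7.77e-06) and did not pass in knockout (0.16, adjusted p = 0.112). In the basement membrane list 6 of 21 rose and 7 fell, beside the 25.0% and 24.8% of all genes. Its laminin gene Lamb2 differed by −1.27 ± 0.15 (adjusted p = 1.02e-05).

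Actg2, the smooth muscle gamma actin, is outside these lists and among the 20 largest rises. It scored 2.02, 2.26 and 2.45 at P7, against −0.39, −0.03 and −0.15 at P0, a rise of 2.43 ± 0.25 (adjusted p = 4.21e-06). In knockout it rose by 4.64, and the weeks differed by −2.21 ± 0.36 (adjusted p = 0.00124; 0.185 by ranks).

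Of the other cells an ovary holds, macrophage and leukocyte genes showed 9 falls and 1 rise among 25, against 24.8% and 25.0% of all genes, with a median of −0.25. With the deposited scores 7 fell and 4 rose. In knockout 5 fell and 9 rose (21.7% and 27.9% of all genes), with a median of 0.16. The weeks differed for 7 of the 25, each time with a negative sign (7.14% of all genes). Csf1r, the macrophage growth factor receptor, scored −0.18, −0.16 and −0.19 at P7, against 0.37, 0.52 and 0.36 at P0. It differed by −0.60 ± 0.09 (adjusted p = 0.000102), 0.03 on its other probe, and by −0.64 in knockout. Aif1, a microglia and macrophage protein, differed by −0.50 in both genotypes (adjusted p = 0.000104 in wild type and 0.000101 in knockout), with −0.12 on its other probe. The rise was of the lysozyme gene Lyz2 (0.89 ± 0.13, adjusted p = 8.91e-05; −0.02 on its other probe).

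Surface epithelium, rete and oviduct genes had 8 falls and no rises among 18, against 24.8% and 25.0% of all genes, with a median of −0.24. In knockout 4 rose and 3 fell, against 27.9% and 21.7% of all genes. With the deposited scores 5 fell, 2 rose and the median was 0.03. Krt8, a keratin of simple epithelia, scored 1.6, 1.36 and 1.28 at P7, against 2.43, 1.95 and 2.24 at P0, and differed by −0.79 ± 0.12 (adjusted p = 0.000116), against 0.17 in knockout (adjusted p = 0.277). Podxl, a sialomucin of epithelial surfaces, fell by 0.95 on the z scale (SE 0.13, adjusted p = 5.89e-05). Endothelial genes had 5 rises and 4 falls among 24, and 13 rises and 2 falls with the deposited scores. In that list Sox18, a factor of vessel formation, rose by 1.24 ± 0.14 (adjusted p = 9.42e-06), and Kdr, the VEGF receptor, differed by −0.55 ± 0.09 (adjusted p = 0.000257). Globin and erythroid genes had smaller shares of calls than all genes (25.0% and 24.8%), with 3 rises and 2 falls among 15. Hba-a1 did not pass (−0.03 ± 0.23, adjusted p = 0.929), but was called with the deposited scores (−2.13, adjusted p = 2.85e-05). What these cell markers contribute to the other changes was not tested.

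Among signalling lists, WNT and RSPO genes had 5 rises and 8 falls among 21, with a median of −0.15, and 8 rises and 6 falls with the deposited scores (median 0.03). The TGF-beta, BMP and activin genes had 11 rises and 6 falls among 36, with a median of 0.10. Of all genes 25.0% rose and 24.8% fell. Axin2, a direct target of WNT signalling, scored 1.13, 1.26 and 1.16 at P7, against 2.22, 2.15 and 2.08 at P0, with no overlap. It fell by 0.97 on the z scale in wild type (SE 0.10, adjusted p = 3.01e-06) and by 0.36 in knockout (adjusted p = 0.00617). Id1, a target of BMP signalling, scored 1.47, 1.52 and 1.33 at P7, against 2.95, 2.09 and 3.2 at P0, a difference of −1.31 ± 0.20 (adjusted p = 9.31e-05). In knockout it differed by −2.49. Junction genes between oocyte and granulosa cells had 7 rises and 1 fall among 15, with a median of 0.28. The glycolysis list (4 rises and 4 falls among 19) and the apoptosis and p53 list (3 rises and 6 falls among 28) had no larger share of calls than all genes.

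**Figure D4:**
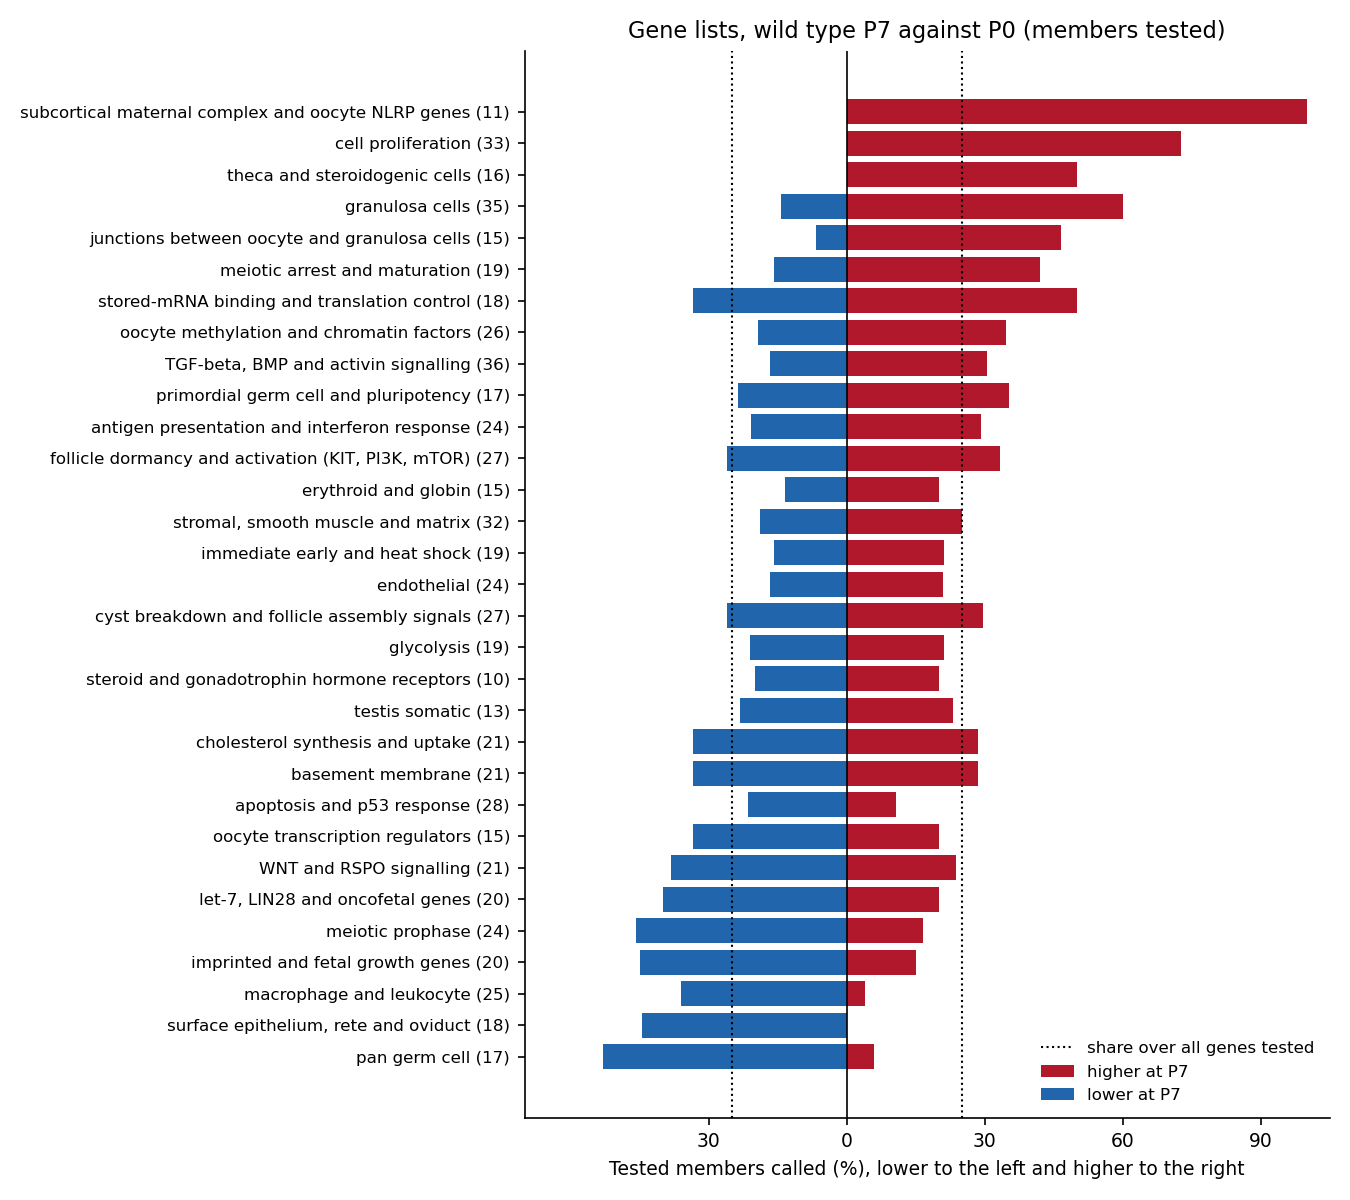
Share of the tested members of each list with at least 10 tested members that were called higher (right) or lower (left) at P7 than at P0 in wild type, in percent; the number tested is in brackets, and the dotted lines mark the 25.0% and 24.8% of all genes. The subcortical maternal complex list stands at the top with all 11 that passed the filter, of 15 with a probe, higher (6 higher and 3 lower with the deposited scores), and pan germ cell genes at the bottom with 9 of 17 lower.

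Among the genes with the largest changes of all were several oocyte genes outside the lists or of roles not described above. Elobl, an elongin B-like gene, scored 3.43, 3.65 and 3.94 at P7, against −0.14, 0.89 and 0.92 at P0, a rise of 3.12 ± 0.21 (adjusted p = 8.42e-08), the largest of any gene tested. Khdc1c, of a KH-domain gene family, scored 2.69, 2.52 and 3.12 at P7, against −0.63, 0.45 and −0.49 at P0, and rose by 3.0 ± 0.21 (adjusted p = 1.27e-07), and by 1.97 on its other probe. Gbx2, a homeobox gene best known from the embryonic hindbrain boundary, scored 2.69, 2.79 and 2.83 at P7, against 0.27, 0.43 and 0.44 at P0. All 3 genes separated the ages without overlap, Gbx2 by 2.39 ± 0.09 (adjusted p = 6.57e-10). The BCL2-family gene Bcl2l10 rose by 2.28 ± 0.14 (adjusted p = 5.25e-08; 0.0582 by ranks), the F-box gene Fbxw15 by 2.46 ± 0.21 (adjusted p = 6.29e-07), and the zinc finger gene Osr2 by 2.34 ± 0.20 (adjusted p = 5.75e-07). Xdh, the xanthine dehydrogenase of purine breakdown, was not above background at P0 and rose by at least 1.84 (adjusted p = 4.18e-08).

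The largest falls outside the germ cell lists were of genes with other roles. Pdrg1, a gene named for its response to DNA damage, was below background on every P7 array, against scores of 1.6, 1.83 and 1.47 at P0, a fall of at least 2.06 (adjusted p = 2.33e-09). Dync1h1, the heavy chain of cytoplasmic dynein, scored 0.83, 0.29 and 0.55 at P7, against 2.75, 2.66 and 2.19 at P0, a difference of −1.98 ± 0.15 (adjusted p = 1.73e-07). Atox1, a copper chaperone, differed by −1.90 ± 0.12 (adjusted p = 4.28e-08). These falls were also called in knockout (−2.69, −1.05 and −1.35). Gng13, a G protein gamma subunit, scored 0.99, 0.92 and 0.44 at P7, against 2.78, 2.70 and 3.17 at P0, a difference of −2.10 ± 0.18 (adjusted p = 7.65e-07). It did not pass in knockout (−0.00, adjusted p = 0.997).

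The wild-type and knockout weeks were then set against each other, since an effect of age on the arrays that is alike in both genotypes cancels. In the oocyte lists the difference of the weeks was positive for 5 and negative for 1 of 6 zona genes, and positive for 4 of 8 growth factor genes, 7 of 11 maternal complex genes, 10 of 18 stored-mRNA genes and 8 of 26 chromatin factors (2 of these last negative), against 5.85% of all genes. The lower wild-type age was below background for 1 zona, 3 growth factor, 5 maternal complex, 4 stored-mRNA and 3 chromatin genes. Where such a gene was also low in knockout, it could pass the filter on dim probes only through the wild-type arrays where it was high. These counts are thus a description. The weeks of Oosp1 and Bmp15 passed as different (adjusted p = 7.70e-06 for both). No knockout array of either age was above background for either gene, so that their knockout week is not a measured change and the size of the difference has no exact value. Of the pan germ cell genes 4 of 17 had a positive difference, and of the meiotic prophase genes 5 of 24, in each case with none negative.

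In granulosa cells Nr5a2 (1.21 ± 0.13, adjusted p = 4.55e-05; 0.834 with median and MAD scaling) had a larger week in wild type, as had Amh, which was below background at P0 in wild type (adjusted p = 7.03e-05). Negative differences, where the wild-type week was the lower one, held 9 of 32 stromal, 7 of 25 macrophage and 5 of 18 surface epithelium genes, against 7.14% of all genes.

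**Figure D5:**
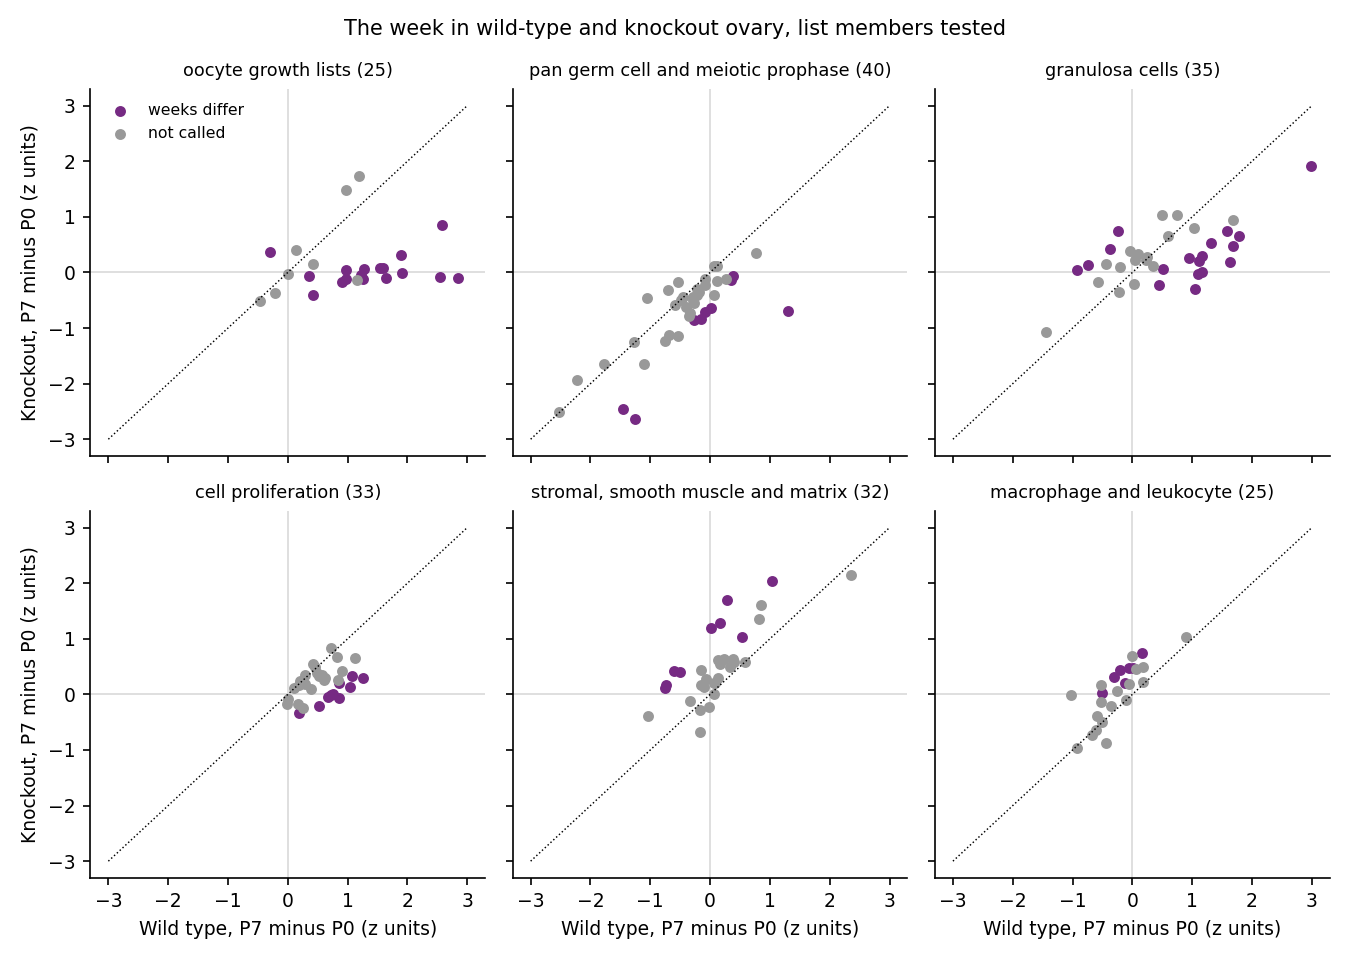
Difference of P7 minus P0 in z units in wild type (horizontal axis) and in knockout (vertical axis) for the tested members of 6 groups of lists; purple marks genes whose weeks differ (limma adjusted p below 0.05) and the dotted line marks equal weeks. Many oocyte growth genes lie near the horizontal axis, with Oosp1 at 2.84 in wild type and below background in knockout, but Padi6 (1.19 and 1.73) and Nlrp5 (0.97 and 1.48) lie above the line (both negative in wild type with the deposited scores). Of the germ cell genes Taf7l lies on it at −2.53 and −2.51, Dazl below it at −1.26 and −2.64, and Kit above it at −1.06 and −0.46.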

How the data were processed

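Total RNA of mouse ovaries was hybridised to Illumina BeadChips of 45281 probes. Software is known from the submitters' processing notes, which name GenomeStudio 2011.1 without its role. As deposited, the authors' values are scores, centred at 0 with unit SD within every array, as tested on the values. The sources used here do not give whether a log preceded them or how background was corrected. The design had assumed bead signals; for scores, the same model was fitted without log2. A further 48 columns give a genotype and an animal code, match no single sample's labels and were not used.

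Groups came from sample titles. Scores were quantile-normalized over 12 arrays, and probes above background (the 95th percentile of 1523 receptor probes) on at least 3 arrays were kept, 23144 in all. A gene below background in the other groups could be kept only through the group where it was high, so counts of list members are descriptions. Of all probes 34885 had 1 gene symbol, 18 several and 10378 none in the platform annotation, and the GRCm38.p6 RefSeq table held 99.7% of the gene IDs. The brightest probe stood for a gene, which left 12215 of 19057 genes. A single linear model of the 4 groups (limma 3.58.1, R 4.3.3, lmFit and eBayes with trend, 8 residual degrees of freedom) gave the differences, with Benjamini-Hochberg adjustment over the 12215 genes and a threshold of 0.05. The script was tested on simulated data. Where the lower age was below background on all its arrays (999 called rises and 181 called falls), the difference is a bound against the background level, written "at least", and none is given for 37 called genes below it at both ages. The number of arrays limits the precision.

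The members and the 36 gene lists (859 different genes) were chosen with earlier results of these data known. Genes were named if they belong to a list, or are among the 20 largest rises or falls with no overlap of the ages, or the 10 largest differences of the weeks in each direction. Tex19.1 met none of these rules and was named only for comparison with Tex19.2. Alternatives tried were the deposited scores, median and MAD scaling, ranks, rounding of P0 scores, other filters, the mean over probes, wild-type arrays alone, other spread estimates, a replicate block, leaving out each array, and, chosen after seeing the data, centring on receptor probes.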

Additional observations from a re-analysis of the deposited data

Results flagged for a closer look

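The week of the wild-type ovary differed from that of the knockout ovary for the following genes, the 10 largest differences in each direction by limma's interaction test (wild-type week minus knockout week, in z units). Each week has 3 P7 and 3 P0 arrays, and the genotypes share none. Of 12215 genes 1587 passed this test (13.0%).

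Most of the 10 largest positive differences were rises in wild type that did not pass in knockout. They were Oosp1 (2.94), Khdc1c (2.86), E330034G19Rik (2.82), Elobl (2.79), Bmp15 (2.63), Gbx2 (2.53), Fbxw15 (2.47) and Pramel25 (2.45). Apart from Elobl, which was above background on the knockout P7 arrays, none of these had a knockout array of either age above background, so the knockout side of their differences is no measured level. By ranks the difference of Elobl was −12.0 percentile points, and those of Khdc1c and Fbxw15 did not pass (adjusted p = 0.241 and 0.115). Pramel25, of a family expressed in germ cells, was not above background at P0 in wild type and rose there by at least 1.83 (adjusted p = 2.33e-09). Ezhip, an inhibitor of Polycomb methylation, differed by 2.49: it rose in wild type by 1.68 ± 0.16 (adjusted p = 2.41e-06) and fell in knockout by 0.82 (adjusted p = 0.000768).

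The tenth, Tex19.2 (2.61), had no change in wild type that passed. It scored 0.76, 0.81 and 0.71 on the wild-type P7 arrays, against 0.71, 0.61 and 0.79 on the wild-type P0 arrays. In knockout it scored 0.16, 0.02 and 0.12 at P7, against 2.44, 2.77 and 2.74 at P0, a difference of −2.55 (adjusted p = 6.24e-10). The knockout P0 arrays stood far above all others.

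Among the negative differences, Cela1, a pancreatic-type elastase (−2.39), the smooth muscle actin gene Actg2 (−2.21), the interferon-inducible Ifi27l2a (−2.17) and Gbp2 (−1.61), and the lipase-related Pnliprp1 (−1.96) were called higher at P7 in knockout. The difference of Pnliprp1 lost its call without any of 4 arrays (adjusted p from 0.0525 to 0.0613). Ifi27l2a scored 0.55, 0.29 and 0.41 at P7, against 0.67, 0.37 and 0.20 at P0 in wild type. Its knockout arrays scored 2.56, 2.66 and 2.47 at P7, against 0.39, 0.82 and −0.02 at P0. Gbp2b, another guanylate-binding protein gene (−1.89), and the growth factor gene Ptn (−1.54) fell in wild type and rose in knockout. Gbp2b scored −0.60, −0.49 and −0.27 at P7, against 0.80, 0.82 and 0.92 at P0 in wild type, and in knockout 0.27, 0.20 and 0.06 at P7, against −0.54, −0.45 and −0.23 at P0. Gng13 (−2.10) and Gstm6, a glutathione transferase (−1.63), fell in wild type and did not pass in knockout. Tm7sf3 (−1.85), a membrane protein gene, was below background on every wild-type P7 array, and its knockout arrays spread widely, with −0.74, 0.50 and 1.01 at P7, against 0.43, −0.66 and −0.65 at P0; its other probe differed by −0.14 in the wild-type week, and by ranks the difference of the weeks was 3.35 percentile points. Its call was also lost with array weights (adjusted p = 0.068) and without the second knockout P7 array (adjusted p = 0.0508).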

How the results depend on the processing

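The count of wild-type calls, 6091 in all, was 5558 to 8565 over the settings with all arrays and 4790 to 5554 after leaving out a wild-type array. With the deposited scores 5178 genes rose in wild type and 5281 in knockout, and with no filter on dim probes 4967 and 4753 fell. Median and MAD scaling gave 6963 calls for the difference of the weeks (433 positive and 6530 negative), and 6828 rises and 991 falls in knockout. Leaving out 1 array of either genotype gave 881 to 1762 calls for the difference of the weeks, 403 to 792 positive and 430 to 970 negative; the total was lowest without the first knockout P7 array (881) and also low without the second knockout P7 array (950) or the second (938) or the third (946) wild-type P7 array. The cause was not tested, apart from the fewer arrays. The share of probes above background differed by 17.2 and 16.6 percentage points with the 90th and 99th percentile as background.

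The wild-type differences of Dcn, Nlrp14, Nlrp5 and Padi6 were −0.77, −0.18, −0.98 and −0.89 with the deposited scores and −5.81, −4.31, −6.79 and −6.55 with median and MAD scaling. Those of Gdf9, Gja1 and Zp3 were −1.10, −2.30 and −0.23 with median and MAD scaling, and that of Nobox was 0.27 with the deposited scores. By ranks, in percentile points, the difference of the weeks was −12.0 for Elobl, 6.52 for Mov10l1, 6.55 for Piwil2 and 3.35 for Tm7sf3. Of the 1874 wild-type values of named genes under alternatives, 1833 kept their side of the threshold and, where called in either fit, their direction. The direction of genes called in neither fit was not counted. Values entered only where the gene was still tested, and most alternatives kept quantile normalization.

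Replicate numbers did not pair the arrays: deviations of same-numbered P7 and P0 arrays correlated with r of 0.02, −0.08 and −0.02. With the replicate number as a block 5995 genes were called in wild type (3025 higher, 2970 lower) and 665 and 819 for the difference of the weeks, and Lhx8 passed with an adjusted p of 0.0492.

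Bead signals and detection were not used here, so what background correction does to the dim genes could not be measured, and 28.3% of genes with at least 2 called probes had opposite calls.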

Other observations

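Cell types outside the ovary's growing follicles left other values. The mast cell tryptase gene Tpsab1 scored −0.02, 0.45 and −0.14 on the wild-type P7 arrays, against 1.98, 1.63 and 1.83 on the wild-type P0 arrays. Its ages were well apart in wild type (−1.72 ± 0.48, adjusted p = 0.00864; adjusted p = 0.0535 with the deposited scores), whereas the knockout P0 arrays spread from 0.89 to 4.01. S100a8, a neutrophil gene, scored −0.41, −0.28 and −0.40 at P7, against 0.24, 1.64 and 0.10 at P0, where 1 array stood high. It differed by −1.02 ± 0.30 (adjusted p = 0.0115).

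Tex19.1, the neighbour in name of Tex19.2 and a germ cell gene, scored 1.43, 1.45 and 1.59 on the wild-type P7 arrays, against 1.43, 1.33 and 1.75 on the wild-type P0 arrays, and did not pass (−0.01 ± 0.12, adjusted p = 0.946). In knockout it scored 0.16, 0.24 and 0.08 at P7, against 2.46, 2.67 and 2.75 at P0. Of the imprinted list's rises the largest was that of the long noncoding RNA Kcnq1ot1, with 0.74, 1.08 and 0.93 at P7, against 0.24, 0.07 and −0.20 at P0 (0.88 ± 0.13, adjusted p = 6.15e-05). It lies in the imprinted cluster of Cdkn1c, whose score fell.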
